A study of Mus musculus with 6 samples.

Results

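The genes described here build ribosomes in the nucleolus. They are 42 genes, chosen by name for their roles in transcription of ribosomal RNA (rRNA), in its modification and cleavage, and in assembly of the small and the large ribosomal subunit. A total of 41 of them were found by symbol among the 34745 genes listed in the table of read counts, and all 41 passed the filter on low counts. The gene not found by symbol was Utp4, which is listed under its older symbol, Cirh1a, and is given apart from the 41.

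Liver RNA was sequenced from mice given a hepatotoxic dose of acetaminophen (APAP, 300 mg/kg, 12 hours) and from mice given saline. Mice of both groups were of the wild-type (WT) genotype and had fasted for 12 hours before the intraperitoneal injection, and the Methods name male C57BL/6J mice of 8 to 10 weeks. The samples comprise 3 livers per group. In the count table, 2 libraries are named for APAP (replicates 1 and 3). The other 3 carry the names WT1, WT2 and WT3. They were taken for the saline group, although WT is the genotype of both groups, so the fold changes hold only if this is right. Replicate 2 of the APAP group was not analysed here. The Methods state biological repeats for the experiments in general, but the labels do not tie each library to a mouse, and the p-values measure the spread between these libraries.

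The total count was between 13378445 and 15976339 per library. Sex-linked genes separated the groups. Xist, which is transcribed from the inactive X chromosome, was at 0.763 and 1.73 CPM (read counts relative to library size, after TMM normalization in edgeR) in the APAP libraries, but at 289 to 913 CPM with saline, whereas Ddx3y on the Y chromosome was at 78.8 and 61.6 CPM with APAP, against 0.0668 CPM or less with saline. The values of WT1, WT2 and WT3 go against the male sex that the Methods name, and the source of this conflict was not tested. The treatment and this difference in sex-linked expression cannot be told apart in any comparison given here. Hepatocyte markers (11 in the table, among them albumin) summed to 72935 and 119920 CPM with APAP and to 132000 to 177170 CPM with saline. Of the 11, 10 had a log2 fold change below 0 (median −0.95), and in 9 both APAP libraries lay under all saline libraries. The test described below called 3 of the 11 lower with APAP (Ass1, Cyp2e1 and Cyp2f2). In bulk liver, fewer cells of a type and less RNA per cell cannot be told apart.

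Ribosomes are made from a long rRNA precursor that RNA polymerase I transcribes in the nucleolus. Small nucleolar ribonucleoproteins (snoRNPs) of the box C/D and box H/ACA classes guide the methylation and the pseudouridylation of this precursor, and a large particle called the small subunit processome folds and cleaves its first part. Other factors assemble the large subunit, and late factors carry both subunits to the cytoplasm. Hepatocytes that prepare to grow or divide are known to enlarge their nucleoli, and the transcription factor MYC is a known activator of many of these genes.

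Of the 41 genes, 11 rose in the APAP livers at an adjusted p under 0.05 (quasi-likelihood test of edgeR, with p adjusted by Benjamini-Hochberg over the 13734 genes tested), which is 26.8%, and none fell. Over all genes tested, 3.7% were called higher and 3.53% lower. The 11 genes were the snoRNP proteins Nop56, Nop58 and Nhp2, the small subunit factors Heatr1, Wdr43, Utp20, Tsr1, Rrp12 and Ltv1, the large subunit factor Rrp1b, and nucleolin (Ncl), and they were between 1.998 and 3.69 times as high with APAP as with saline. With the threshold of the study (1.5-fold or more, with P under 0.05 before adjustment), 21 of the 41 were higher and none was lower, against 12.3% and 11.2% of all genes tested. The lowest APAP library exceeded the highest saline library in 33 of the 41 genes, against 23.9% of all genes tested, and the reverse held for 1 gene, Imp3, against 20.2%.

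The median log2 fold change of the 41 genes was 0.60, against 0.03 for all genes tested, and 39 of the 41 were above 0. The 2 below 0, Imp3 and Nop10, did not pass the test, and neither had an unadjusted p under 0.05. DESeq2 called 17 of the 41 and the likelihood ratio test of edgeR 13, all of them higher. With scaling to library size only, the median of all genes moved up by 0.39 on the log2 scale, that of the 41 genes stood at 1.002, 19 were called, and Nop10 turned to 0.090. These calls depended on which libraries entered the fit. Among the 41 genes, 0 were called without APAP replicate 1 (15 had an unadjusted p under 0.05), 2 without APAP replicate 3, 1 without WT1, 0 without WT2 (17 had an unadjusted p under 0.05) and 11 without WT3. The number of genes called over the whole table fell as well, from 993 to 235, 401, 510, 165 and 922 in the same order. The median log2 fold change of the 41 genes was between 0.53 and 0.73 in these fits. Of the 11 genes called with all libraries, 8 were still called without WT3, 1 without WT1 and 0 without WT2.

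**Figure D1:**
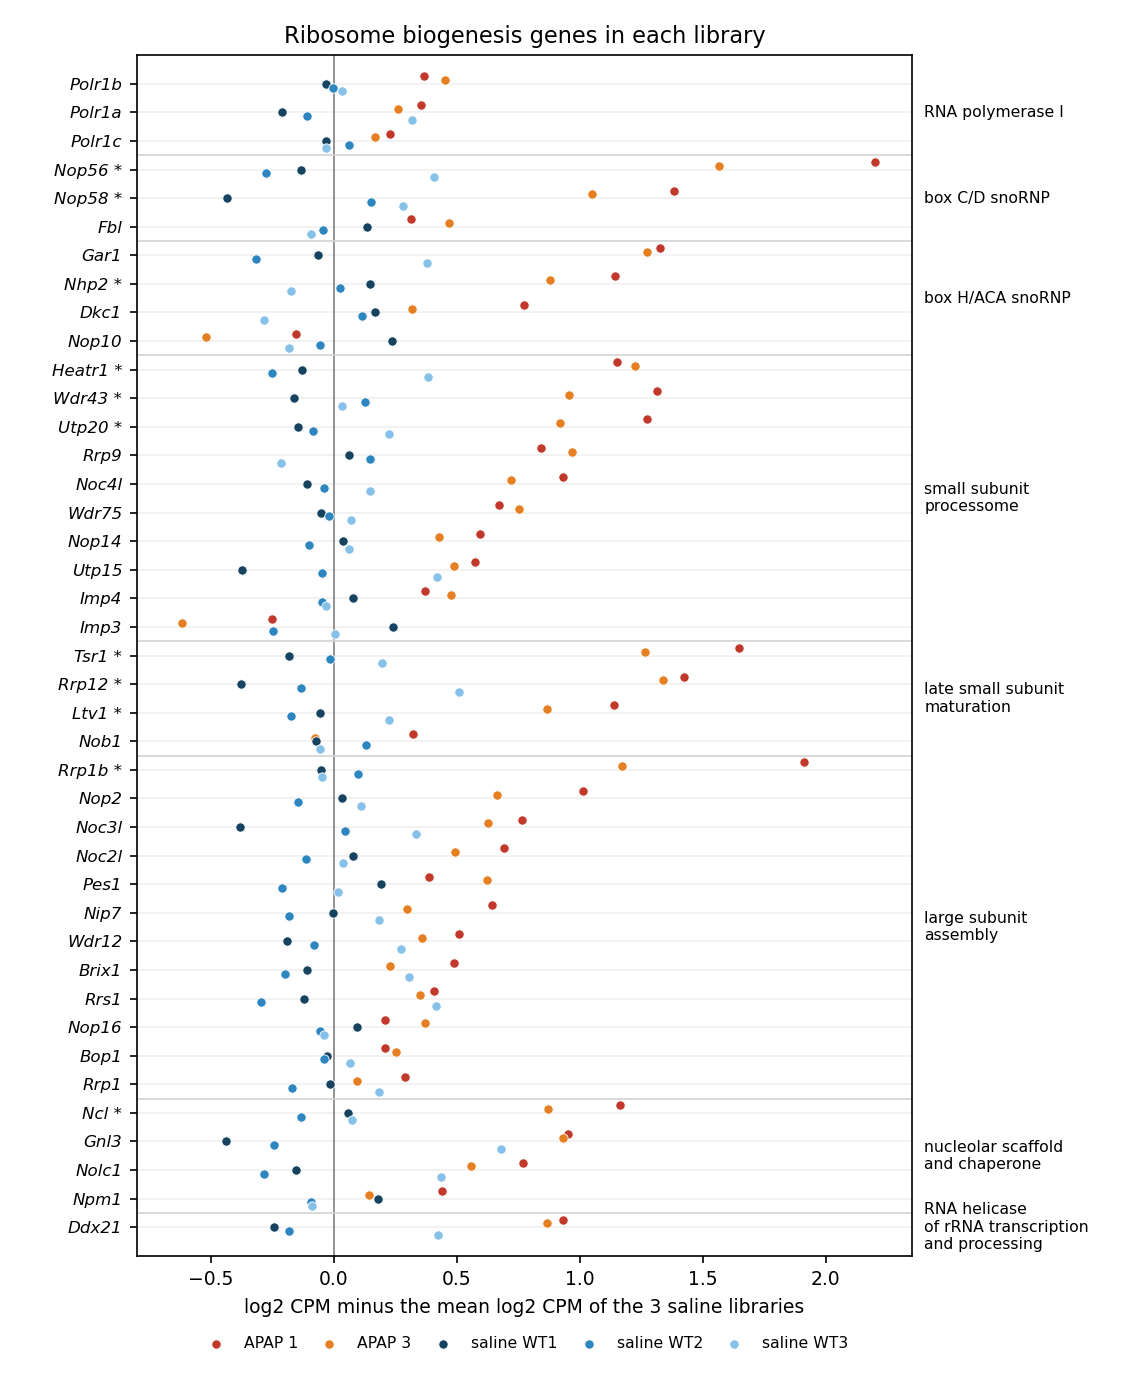
Each row is 1 of the 41 genes, grouped by role, and each point is 1 library, plotted as its log2 CPM minus the mean log2 CPM of the 3 saline libraries (horizontal axis), with an asterisk at genes with an adjusted p under 0.05. The points are offset within a row to be seen apart. Both APAP libraries lie right of all saline libraries in 33 rows, and Imp3 and Nop10 lie left of 0 in both APAP libraries.

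The difference was present in both APAP libraries and unequal between them. The median of the 41 genes lay above the saline mean by 0.69 in APAP replicate 1 and by 0.56 in APAP replicate 3 on the log2 scale, and replicate 1 was the higher of both in 32 of the 41 genes. Among the saline libraries the medians were −0.052 in WT1, −0.083 in WT2 and 0.11 in WT3, and WT3 was the highest in 26 of the 41 genes. Summed over the 41 genes, the level was 1862.5 and 1618 CPM with APAP and 1088, 1008 and 1188 CPM in WT1, WT2 and WT3, so that the groups did not overlap. As a share of the raw counts, the sums were 0.237% and 0.176% with APAP and 0.0851%, 0.0988% and 0.111% with saline. Nucleolin and nucleophosmin supplied much of these sums, and the median is the measure that does not depend on them.

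The promoters of these genes were searched for a few short motifs. A window from 250 bases before to 50 bases after the start site was given by RefSeq (GRCm38.p6) for 36 of the 41 genes. The E-box CACGTG, the sequence to which MYC and its partner MAX bind, reads the same on both strands and was found in 7 of the 36 (19.4%), against 8.09% of all 27025 genes with a window and 11.5% of the 10146 of these that were tested. The members with it were Imp4, Ltv1, Nop2, Pes1, Tsr1, Utp20 and Wdr43, and 4 of the 7 rose (Ltv1, Tsr1, Utp20 and Wdr43), as did 6 of the 29 without it. Their median log2 fold change was 0.999 with the E-box (0.43 to 1.46) and 0.60 without it. These shares were not tested, and a match of 6 letters describes the sequence and does not show that a factor binds there. The windows of all 7 follow, on the strand of the gene, with the E-box in capitals. Myc itself rose in these livers, as described further on, and a link between that rise and these genes was not tested. The position is that of the first base of the match, counted from the start site, where the first transcribed base is 1.
Tsr1 (chr11:74898092-74898121, plus strand, position 25): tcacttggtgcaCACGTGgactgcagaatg
Wdr43 (chr17:71616220-71616249, plus strand, position 18): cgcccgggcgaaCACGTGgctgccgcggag
Utp20 (chr10:88826765-88826789, minus strand, position 38): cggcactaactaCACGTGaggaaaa
Ltv1 (chr10:13193092-13193121, minus strand, position 29): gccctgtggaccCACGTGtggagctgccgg
Nop2 (chr6:125131811-125131840, plus strand, position -60): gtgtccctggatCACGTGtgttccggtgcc
Pes1 (chr11:3963965-3963994, plus strand, position 3): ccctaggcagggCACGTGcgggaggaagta
Imp4 (chr1:34439696-34439725, plus strand, position -121): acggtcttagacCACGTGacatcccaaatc
The E-box lay downstream of the start site in the 4 genes of this group that rose, between positions 18 and 38, and also in Pes1, which was not called, at position 3. In Nop2 and Imp4, which were not called either, it lay upstream.

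The core of the site bound by ETS factors, CCGGAAG or CTTCCGG on the other strand, was found in 12 of the 36 windows (33.3%), against 9.93% of all genes with a window and 19.0% of those tested. The members with it were Brix1, Gar1, Heatr1, Ltv1, Nhp2, Nip7, Noc2l, Noc3l, Nolc1, Nop2, Polr1c and Tsr1, and no match shared a base with an E-box. Of the 12, 4 rose, as did 6 of the 24 without the core, and these shares were not tested. The windows of the 4 that rose are shown with the core in capitals. The median log2 fold change was 0.76 for the 12 genes and 0.53 for the other 24. Ltv1, which rose, and Nip7, which was not called, held the core in both orientations.
Tsr1 (chr11:74898068-74898096, plus strand, position -1): ctcgggtccgcCCGGAAGtagagttcact
Heatr1 (chr13:12395348-12395376, plus strand, position -16): gtagtgagaagCCGGAAGttcctatgagg
Nhp2 (chr11:51619739-51619767, plus strand, position -23): cacttgaaaacCCGGAAGtgatgtcggag
Ltv1 (chr10:13193175-13193203, minus strand, position -55): ggctcacgcaaCTTCCGGctacagcctag
Ltv1 (chr10:13193218-13193246, minus strand, position -98): agccccacctcCCGGAAGtccccgggaag
The YY1 core AAGATGGC, searched on both strands, was found in 1 of the 36 windows (Imp4, 2.78%). The share was 3.19% of all genes with a window and 5.05% of those tested. RefSeq's table gave no window for Bop1, Fbl, Npm1, Rrp12 and Rrs1.

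**Figure D2:**
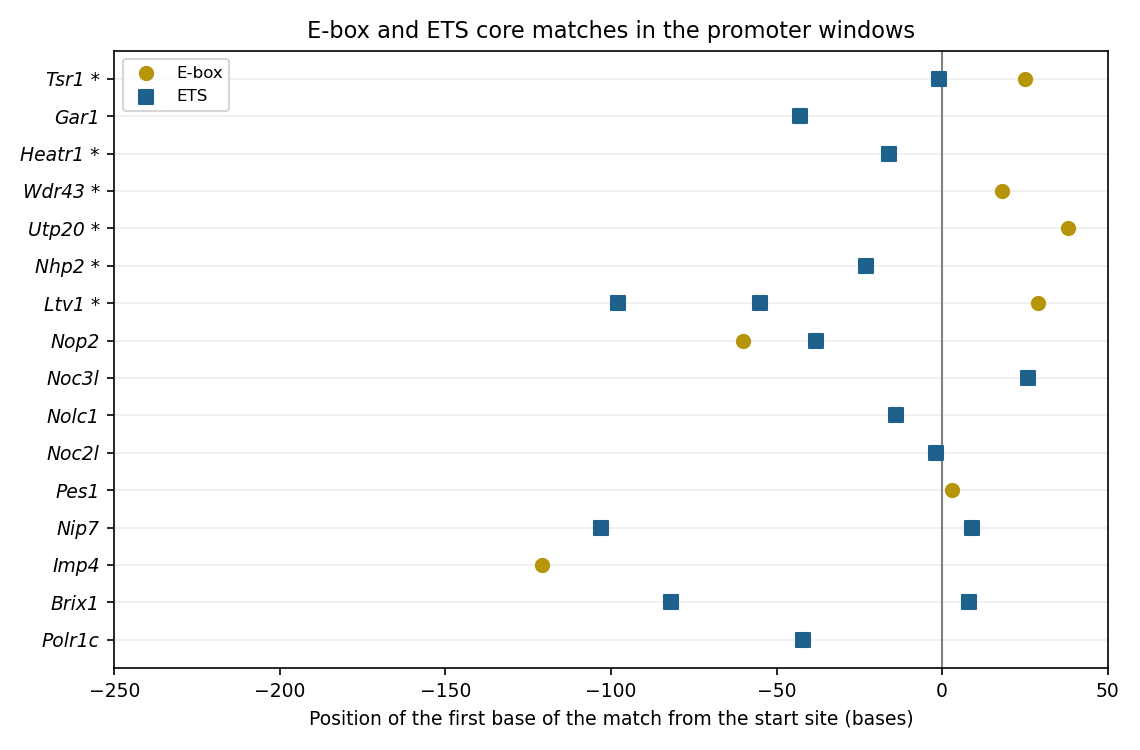
Circles (E-box) and squares (ETS core) mark the first base of each match in the promoter windows of 16 genes, by distance from the start site in bases (horizontal axis). Genes are ordered by log2 fold change, the highest on top, and an asterisk marks an adjusted p under 0.05. Of the 15 ETS cores, 12 begin upstream of the start site, those of Tsr1 and Noc2l running across it. The E-boxes of Tsr1, Wdr43, Utp20, Ltv1 and Pes1 lie just downstream of the start site.

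RNA polymerase I transcribes the rRNA precursor. Its 3 subunits among the genes did not pass the test, and none had an unadjusted p under 0.05 or was called by DESeq2. Polr1a, the largest subunit, was at 34.7 and 32.5 CPM in APAP replicates 1 and 3, against 23.5, 25.2 and 33.8 CPM in WT1, WT2 and WT3, the order in which saline values are given throughout. Its log2 fold change, with the standard error (SE) of the fit, was 0.29 ± 0.23 (adjusted p = 0.481). The value of WT3 lay between those of the APAP libraries. Polr1b, the second largest subunit, was at 20.998 and 22.3 CPM with APAP, against 15.9, 16.3 and 16.7 CPM with saline. Its groups did not overlap, and the log2 fold change of 0.41 ± 0.19 (SE) had an adjusted p of 0.228. Polr1c, a subunit shared with RNA polymerase III, had the smallest value of the 3, 0.20 ± 0.19 (SE, adjusted p = 0.560).

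Box C/D snoRNPs methylate the rRNA, and Nop56 and Nop58 are the paired core proteins that hold their guide RNA. Nop56 (ENSMUSG00000027405, chromosome 2 of GRCm38, 130274430 to 130279313) had the highest log2 fold change of the 41 genes. It was at 50.9 and 32.8 CPM with APAP, against 10.1, 9.16 and 14.7 CPM with saline, or 41.8 ± 12.8 CPM (SD, n = 2 libraries) against 11.3 ± 2.95 CPM (SD, n = 3). The lower APAP library was far above the highest saline library, and the log2 fold change was 1.88 ± 0.30 (SE, adjusted p = 0.0174). With APAP replicate 3 left out it was 2.16, and with replicate 1 left out 1.54, when the adjusted p was above 0.05, as it also was without WT1 or WT2. Nop58 (ENSMUSG00000026020, chromosome 1, 59684971 to 59719044) was at 46.5 and 36.9 CPM with APAP, against 13.2, 19.8 and 21.6 CPM with saline, a log2 fold change of 1.19 (adjusted p = 0.0444). Fibrillarin (Fbl), the methyltransferase of the same particle, was at 24.9 and 27.8 CPM with APAP, against 22.04, 19.4 and 18.8 CPM with saline. Its groups did not overlap, but the log2 fold change of 0.39 ± 0.19 (SE) did not pass the test (adjusted p = 0.268).

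Of the words of 50 bases in the longest coding transcript of Nop56, 37.6% occur in transcripts of other genes, and for fibrillarin 70.4%, the closest genes being processed pseudogenes. The study does not state how reads with more than one match were counted, so these 2 levels are uncertain. The same holds for Npm1 (40.9%) and Pes1 (20.99%), and for the other 37 genes the share was at most 7.31%.

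Box H/ACA snoRNPs turn uridine into pseudouridine, and Dkc1 (dyskerin) is their enzyme. Nhp2 (ENSMUSG00000001056, chromosome 11, 51619735 to 51623714) rose. It was at 38.2 and 31.8 CPM with APAP, against 19.2, 17.6 and 15.4 CPM with saline, a log2 fold change of 1.01 ± 0.21 (SE, adjusted p = 0.0355). Gar1 had a higher log2 fold change but fewer counts and missed the threshold. It was at 10.6 and 10.2 CPM with APAP, against 4.03, 3.39 and 5.47 CPM with saline, a log2 fold change of 1.27 ± 0.30 (SE, adjusted p = 0.0543). Gar1 was called under 7 alternatives, among them DESeq2 (adjusted p = 0.00967) and the fit without WT3 (adjusted p = 0.0464). Dkc1 was at 22.8 and 16.6 CPM with APAP, against 14.96, 14.4 and 10.9 CPM with saline, and its log2 fold change of 0.55 had an adjusted p of 0.226. Nop10, the smallest protein of the particle, was at 34.5 and 26.7 CPM with APAP, against 45.2, 36.8 and 33.8 CPM with saline. Its groups overlapped, and the log2 fold change was −0.33 ± 0.23 (SE, adjusted p = 0.423).

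**Figure D3:**
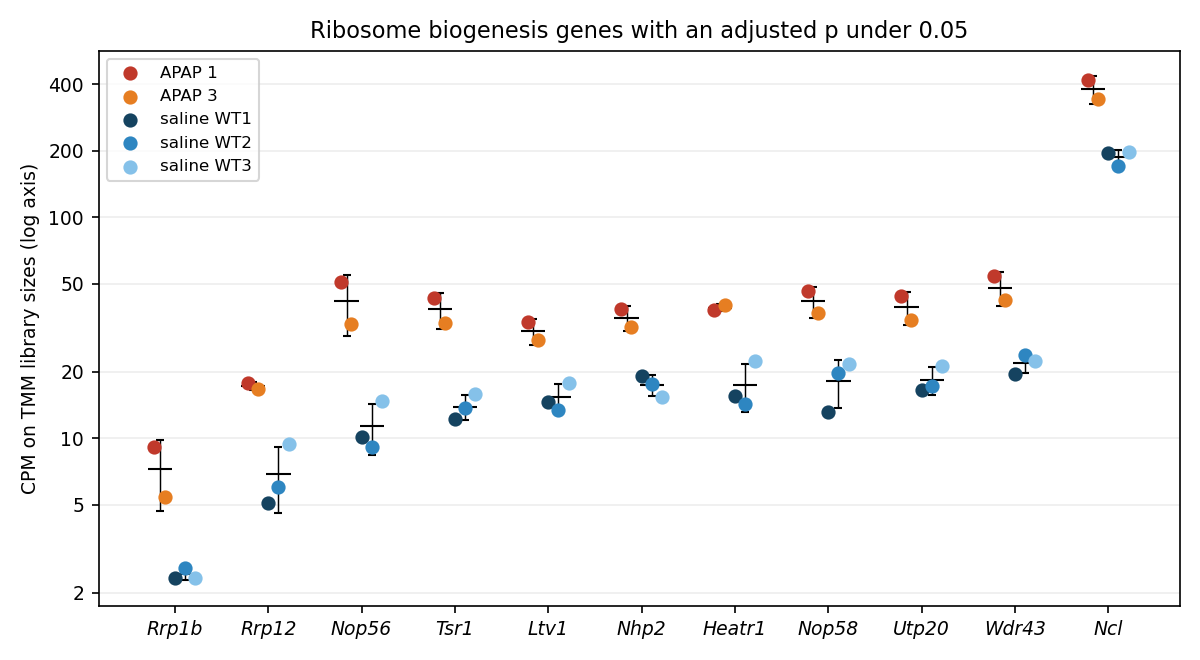
Points give the CPM on TMM library sizes (log axis) of the 11 genes with an adjusted p under 0.05 in each library, with the mean (horizontal bar) and SD (error bar) of the 2 APAP and the 3 saline libraries. In every gene both APAP points lie above the 3 saline points. Ncl is at 342 to 419 CPM with APAP, and Rrp1b at 5.43 to 9.09 CPM.

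The small subunit processome cleaves the precursor at the ends of the small subunit rRNA. Of its 10 measured members, 3 rose, 6 passed the threshold of the study, and the median log2 fold change was 0.77. Heatr1 (ENSMUSG00000050244, chromosome 13, 12395398 to 12438677), a scaffold that also takes part in rRNA transcription, was at 37.9 and 39.9 CPM with APAP, against 15.6, 14.3 and 22.2 CPM with saline. Its log2 fold change was 1.16 ± 0.24 (SE, adjusted p = 0.0386), and the APAP libraries differed by less than the saline libraries did. Wdr43 (ENSMUSG00000041057, chromosome 17, 71616215 to 71659031), a subunit of the same early complex, was at 54.0 and 42.1 CPM with APAP, against 19.4, 23.8 and 22.2 CPM with saline, a log2 fold change of 1.14 ± 0.21 (SE, adjusted p = 0.0274). Utp20 (ENSMUSG00000004356, chromosome 10, 88746607 to 88826814), a very large scaffold protein, was at 44.0 and 34.4 CPM with APAP, against 16.5, 17.2 and 21.3 CPM with saline (log2 fold change 1.10, adjusted p = 0.0348). These 3 genes changed by almost the same factor.

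Rrp9, a protein of the U3 snoRNP, Noc4l and Wdr75 had log2 fold changes of 0.90, 0.83 and 0.71, with groups that did not overlap and adjusted p-values between 0.0771 and 0.0834. Nop14, Utp15 and Imp4 were between 0.43 and 0.51, with adjusted p-values of at least 0.157. Imp3, which holds the U3 RNA on the precursor together with Imp4, had the lowest value of the 41 genes. Imp3 was at 24.6 and 19.1 CPM with APAP, against 34.6, 24.6 and 29.3 CPM with saline, a log2 fold change of −0.43 ± 0.24 (SE, adjusted p = 0.316), and APAP replicate 1 and WT2 were at nearly the same value. Utp4 (ENSMUSG00000041438), the gene listed as Cirh1a, was at 23.1 and 21.7 CPM with APAP, against 20.2, 16.1 and 22.8 CPM with saline. The groups overlapped, and its log2 fold change was 0.19 ± 0.22 (SE, adjusted p = 0.657).

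Late factors bring the small subunit out of the nucleolus and finish it in the cytoplasm, and 3 of the 4 rose. Tsr1 (ENSMUSG00000038335, chromosome 11, 74898071 to 74909342), which blocks premature joining of translation factors, was at 43.3 and 33.2 CPM with APAP, against 12.2, 13.7 and 15.8 CPM with saline. Its log2 fold change was 1.46 ± 0.22 (SE), with the smallest adjusted p of the 41 genes, 0.0160. Tsr1 kept an adjusted p under 0.05 in 10 of 12 alternatives and lost it without APAP replicate 1 and without WT2. Exons of Srr on the opposite strand overlap 32.3% of the exonic bases of Tsr1, and since no strand setting is stated, the reads cannot be told apart there. Srr itself was lower in the APAP libraries, at 39.8 and 31.9 CPM against 58.9 to 69.3 CPM (log2 fold change −0.84, adjusted p = 0.0613). Rrp12 (ENSMUSG00000035049, chromosome 19, 41862852 to 41896153), an export factor, was at 17.8 and 16.7 CPM with APAP, against 5.11, 6.04 and 9.41 CPM with saline (log2 fold change 1.33, adjusted p = 0.0487). Ltv1 (ENSMUSG00000019814, chromosome 10, 13178640 to 13193137), which leaves the subunit at a late step, was at 33.4 and 27.7 CPM with APAP, against 14.6, 13.5 and 17.8 CPM with saline (log2 fold change 0.999, adjusted p = 0.0418).

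Nob1, the nuclease that makes the final cut of the small subunit rRNA, stood apart from these 3. It was at 13.2 and 10.004 CPM with APAP, against 10.03, 11.5 and 10.1 CPM with saline, a log2 fold change of 0.13 ± 0.24 (SE, adjusted p = 0.781), and APAP replicate 3 was the lowest of the 5 libraries. Without APAP replicate 1 its log2 fold change was −0.077.

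The 12 factors of large subunit assembly had a median log2 fold change of 0.45, and all 12 were above 0. Rrp1b (ENSMUSG00000058392, chromosome 17, 32036100 to 32062865), a chromatin-associated nucleolar protein, was the 1 that rose. It was at 9.09 and 5.43 CPM with APAP, against 2.33, 2.59 and 2.34 CPM with saline, a log2 fold change of 1.58 ± 0.35 (SE, adjusted p = 0.0435), and the APAP libraries differed widely. Without APAP replicate 1 the value was 1.17. Its paralog Rrp1, the most abundant of the 12 by CPM, was at 71.9 and 62.9 CPM with APAP, against 58.2, 52.2 and 66.9 CPM with saline. Its groups overlapped, and the log2 fold change of 0.19 ± 0.21 (SE, adjusted p = 0.622) was the lowest of the 12.

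Nop2, an rRNA methyltransferase that is high in proliferating cells, came next after Rrp1b in this group. It was at 36.4 and 28.6 CPM with APAP, against 18.5, 16.3 and 19.5 CPM with saline, without overlap, and its log2 fold change of 0.85 missed the threshold (adjusted p = 0.0581). Noc2l and Noc3l, which move pre-ribosomes through the nucleus, had log2 fold changes of 0.60 and 0.67 (adjusted p = 0.111 and 0.199). In 20.9% of its exonic bases Noc2l is overlapped by Samd11 on the opposite strand, a gene with 58 and 24 counts in the APAP libraries and none in the saline libraries. Pes1, Bop1 and Wdr12 form the PeBoW complex of large subunit rRNA processing. Their log2 fold changes were 0.50, 0.23 and 0.42, with adjusted p-values between 0.197 and 0.490 and with groups that did not overlap. Nip7, Brix1, Rrs1 and Nop16 were between 0.29 and 0.48, and the groups overlapped in Brix1 and Rrs1.

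Among the nucleolar scaffold proteins and chaperones, nucleolin rose. Ncl (ENSMUSG00000026234, chromosome 1, 86344719 to 86359400) binds the nascent rRNA and was the most abundant of the 41 genes by CPM. It was at 419 and 342 CPM with APAP, against 195, 171 and 197 CPM with saline, or 381 ± 54.4 CPM (SD, n = 2) against 187.6 ± 14.7 CPM (SD, n = 3). The log2 fold change was 1.02 ± 0.23 (SE, adjusted p = 0.0450). This call was lost in 6 of 12 alternatives, namely with size factors by relative log expression and in each of the 5 fits without 1 library. Nucleophosmin (Npm1), an abundant nucleolar chaperone, was at 173 and 141 CPM with APAP, against 145, 119.9 and 120.2 CPM with saline, so that APAP replicate 3 lay under WT1. Its log2 fold change was 0.30 ± 0.22 (SE, adjusted p = 0.467).

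Gnl3 (nucleostemin), a GTPase of proliferating cells and stem cells, and the helicase Ddx21 both had a high value in WT3. This was not particular to them, as WT3 was the highest saline library in 26 of the 41 genes. Gnl3 was at 60.6 and 59.7 CPM with APAP, against 23.1, 26.4 and 50.1 CPM with saline. Its log2 fold change of 0.86 had an adjusted p of 0.183, and without WT3 it was 1.28 with an adjusted p of 0.0268. Ddx21, which couples rRNA transcription with its processing, was at 91.6 and 87.4 CPM with APAP, against 40.6, 42.3 and 64.5 CPM with saline. The log2 fold change was 0.87 ± 0.26 (SE, adjusted p = 0.0931), and 1.11 without WT3 (adjusted p = 0.0371). Nolc1, a chaperone of snoRNPs, had a log2 fold change of 0.63 (adjusted p = 0.198), with WT3 likewise the highest saline library.

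Several of the genes carry snoRNA genes in their own introns, so that the same transcript can supply a protein and a guide RNA. In GENCODE M21, 21 snoRNA genes lie within 7 of the 41 genes on the same strand (17.1%), against 1.62% of the 12802 protein-coding genes tested. The 7 were Nop56 (5 snoRNA genes), Nop58 (4), Gnl3 (3), Ncl (3), Wdr43 (3), Tsr1 (2) and Dkc1 (1). Of these 7, 5 rose and the median log2 fold change was 1.14, while 6 of the other 34 rose and their median was 0.50. The snoRNAs themselves were not analysed here, since the protocol names oligo(dT) primers.

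**Figure D4:**
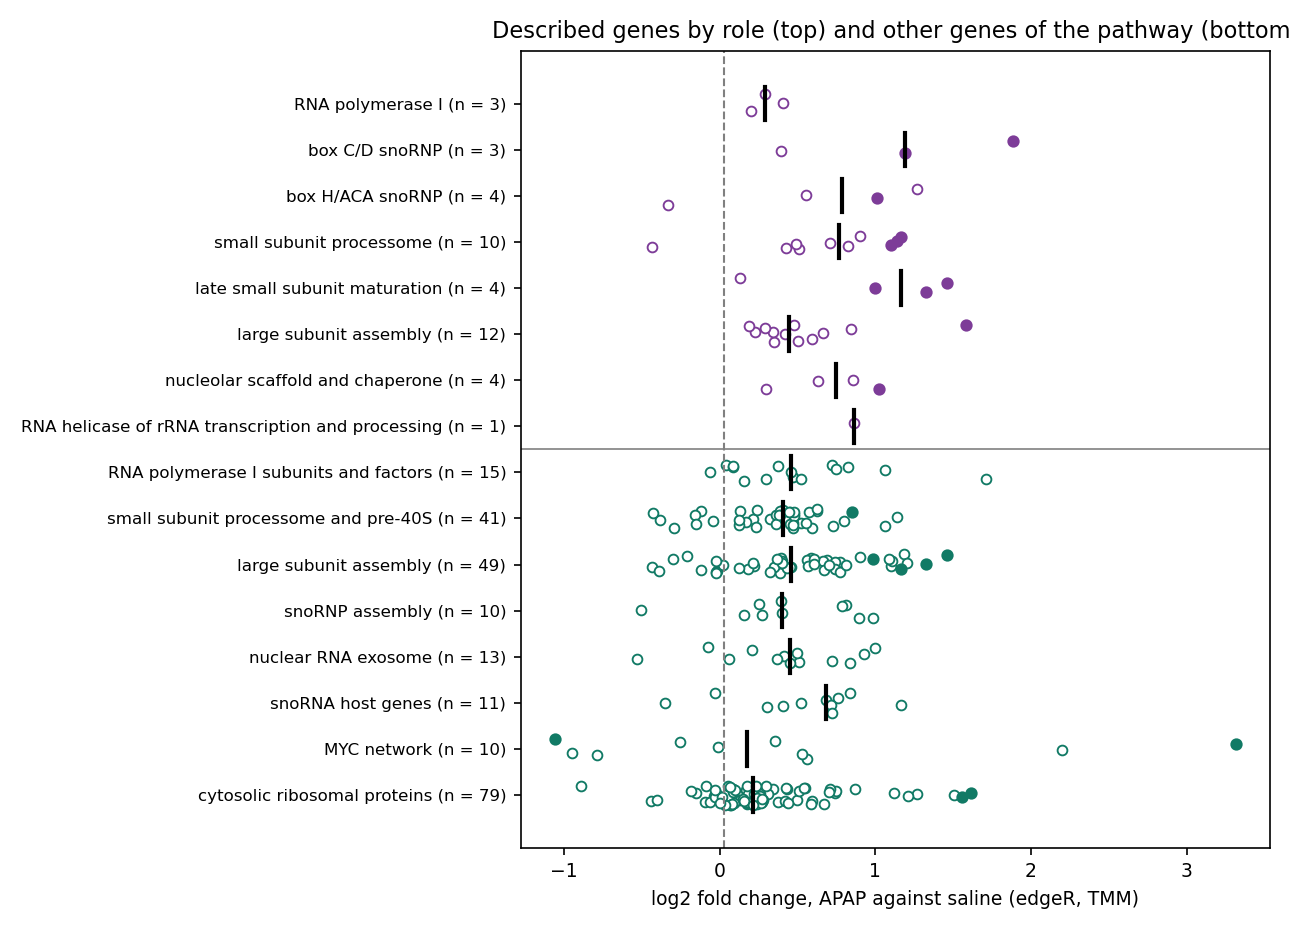
Each point is the log2 fold change of 1 gene between APAP and saline livers (horizontal axis), for the 41 genes by role (top) and for further lists of the pathway (bottom), with filled points at an adjusted p under 0.05 and a black bar at the median of each list. The dashed line is the median of all genes tested, 0.03. The medians of the box C/D and late small subunit groups are above 1, and that of the ribosomal proteins is 0.22.

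Other genes of the pathway were read from lists of factors that are not among the 42. In the list of RNA polymerase I subunits and factors, 0 of 15 were called by edgeR's quasi-likelihood test (4 had an unadjusted p under 0.05, and DESeq2 called 2), with a median log2 fold change of 0.46. Rrn3, which recruits the polymerase, was at 22.5 and 23.7 CPM with APAP, against 17.1, 16.3 and 17.1 CPM with saline, a log2 fold change of 0.46 with an adjusted p of 0.185. Ubtf, the factor that opens rRNA genes, was at 44.9 and 43.2 CPM with APAP, against 35.1, 41.6 and 47.9 CPM with saline, and its groups overlapped (log2 fold change 0.083, adjusted p = 0.847). Of 41 further small subunit factors, 1 rose (2.44%, against 3.7% of all genes tested), namely Nol6 (0.85, adjusted p = 0.0404). By the threshold of the study 6 were higher (14.6%, against 12.3%), and the median was 0.41.

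In the list of 49 further large subunit factors, 4 rose (8.16%, against 3.7% of all genes tested). In the upward direction 20 passed the threshold of the study (40.8%, against 12.3%), and the median log2 fold change was 0.46. Eif6, which keeps the immature large subunit from joining the small one, was at 113 and 93.2 CPM with APAP, against 45.5, 27.5 and 39.6 CPM with saline (log2 fold change 1.46, adjusted p = 0.0253). Mybbp1a, a nucleolar regulator of transcription, was at 90.4 and 86.3 CPM with APAP, against 32.6, 32.5 and 40.8 CPM with saline (1.32, adjusted p = 0.0160). The GTPase Gnl2 and the kinase Nol9 were the other 2, with log2 fold changes of 1.16 and 0.99. No gene was called by edgeR's quasi-likelihood test among 10 snoRNP assembly factors (median 0.40, 4 with an unadjusted p under 0.05, 0 called by DESeq2), 13 exosome genes (0.45, 3 and 1) and 11 snoRNA host genes without a long reading frame (0.69, 0 and 0). Taken as 1 list of 128 genes, the assembly, polymerase, snoRNP and exosome factors had a median log2 fold change of 0.45 with 5 called (3.91%, against 3.7% of all genes tested). Of the 128, 35 passed the threshold of the study in the upward direction (27.3%, against 12.3%), 83 had both APAP libraries above all saline libraries (64.8%, against 23.9%) and 108 were above 0.

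The ribosomal proteins themselves are the product that these factors assemble. Of 79 genes, 2 rose (2.53%, against 3.7% of all genes tested), and the median log2 fold change was 0.22. By the threshold of the study 10 were higher (12.7%, against 12.3%) and 1 was lower. The 2, Rps6 and Rpl12, were at 5.63 and 6.61 CPM against 1.59 to 2.42 CPM and at 15.9 and 14.5 CPM against 4.45 to 6.003 CPM. Ribosomal protein genes have many pseudogenes of near-identical sequence, so that their counts are uncertain.

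Myc, the transcription factor named above, rose furthest of the genes of the pathway lists. Myc (ENSMUSG00000022346, chromosome 15, 61985341 to 61990374) was at 17.4 and 19.3 CPM with APAP, against 1.34, 1.79 and 2.34 CPM with saline, a log2 fold change of 3.31 ± 0.31 (SE, adjusted p = 0.00376). It kept an adjusted p under 0.05 in all 12 alternatives, with log2 fold changes between 3.16 and 3.69. Mxi1, a partner of MAX that counteracts MYC, fell. It was at 16.4 and 19.4 CPM with APAP, against 42.3, 32.7 and 36.8 CPM with saline, a log2 fold change of −1.06 (adjusted p = 0.0372), and this call was lost in each fit without 1 library and with scaling to library size only (−0.66). Of 10 genes of the MYC network, these 2 were called. With 5 libraries no correlation between Myc and the ribosome biogenesis genes was computed.

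Markers of some other cells differed between the groups as well. Neutrophil markers summed to 2168 and 741 CPM with APAP and to 14.9 to 71.0 CPM with saline, and 9 of the 10 tested rose. Much of that sum was Lcn2 (2042 and 660 CPM), which injured hepatocytes are also known to make, and Ly6g and Camp had no count in any saline library. Of the monocyte markers 3 of 9 rose, of the cholangiocyte markers 2 of 6, and of the stellate cell markers 1 of 9. The share over all genes tested was 3.7%. Below 0 were 3 of the monocyte, 1 of the cholangiocyte and 5 of the stellate cell markers. The median log2 fold changes were 0.92, 2.47 and −0.059 in this order. The summed CPM of the monocyte and of the stellate cell markers overlapped between the groups. Spp1 is in both the monocyte and the cholangiocyte list. No Kupffer cell (9 tested), sinusoidal endothelial (9) or lymphocyte (4) marker was called by edgeR's quasi-likelihood test, with 1, 1 and 0 at an unadjusted p under 0.05 and 1, 0 and 0 called by DESeq2. Of 14 cell cycle genes, 1 rose (Mcm2, log2 fold change 2.09), while 6 passed the threshold of the study, the likelihood ratio test called 6 and DESeq2 called 5. Their median log2 fold change was 0.66, and the cell cycle genes summed to 136 and 189 CPM with APAP and to 51.2 to 67.5 CPM with saline. The part of all these markers in the levels of the ribosome biogenesis genes was not tested.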

How the data were processed

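Liver RNA was extracted with TRIzol, made into libraries with the SMARTER mRNA-Seq kit and read on an Illumina NovaSeq instrument. The authors deposited raw read counts per gene, obtained with HISAT2, without normalization. The processing notes name GRCm38 (mm10), and no strand setting, annotation or program version is given in the sources used here. A further 5 columns of values per library (FPKM) were not used, and neither was any comparison by the authors. The 42 genes, their roles and the other gene lists were chosen with earlier results of these data known. No list was given a test of its own.

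Of the 34745 genes, 13734 passed filterByExpr of edgeR 4.0.16 (R 4.3.3), run with a minimum count of 10 and a minimum total of 15. Library sizes were scaled by TMM, the quasi-likelihood test compared both groups over all genes tested, and p was adjusted by Benjamini-Hochberg. CPM were computed on TMM library sizes. The standard error is the log2 fold change divided by the square root of its F statistic. A count of 3 corresponded to 0.176 to 0.269 CPM, which covers counting error only. The fit was tested on simulated data that varied less between libraries than these data did, so that test does not cover their full spread. Within a group, counts differed between libraries far beyond sampling noise, with a chi-square of 46.7 to 99.8 per degree of freedom. Alternatives were edgeR's likelihood ratio test, DESeq2 1.42.0, other scalings, other filters and each library left out in turn. The design had been written for 3 APAP libraries.

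CPM in every library are given for genes with an adjusted p under 0.05, for the most abundant gene of a role and for genes that moved against the rest, and full statistics for at most 3 genes of a role. From the other pathway lists the 2 highest and 2 lowest called genes of a list with a mean of at least 1 CPM are named, and Myc, Ubtf and Rrn3 in any case. The further genes for which values per library are given were chosen after their values were seen. Gene coordinates were copied from the count table. Python 3.11.15 read the promoter sequences from RefSeq.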

Additional observations from a re-analysis of the deposited data

How the results depend on the processing

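Direction held for most of the 41 genes in the 12 alternatives. Of 492 comparisons of a gene with an alternative, 422 kept direction and side of the threshold, 45 lost the call, 23 gained it and 2 changed sign. Only 11 of the 41 genes were called in the main fit, so keeping the side of the threshold often meant remaining uncalled. Of these 11, 8 were still called without WT3, 1 without WT1 and 0 without WT2. The changes of sign were Nop10 with scaling to library size only (0.090) and Nob1 without APAP replicate 1 (−0.077), and Ubtf changed sign without WT1 (−0.011). With 1 library left out, Nob1 was between −0.077 and 0.31 and Ubtf between −0.011 and 0.20. Of the 41 genes, DESeq2 called 17 and scaling to library size only 19, in place of 11, and the threshold of the study called 21, or 38 with scaling to library size only. That scaling put the median log2 fold change of the 41 genes at 1.002, moved the median of all genes by 0.39, and raised the share of higher genes among those called from 51.2% to 77.8%. With 1 library left out, the genes called among the 41 numbered between 0 and 11, all genes called between 165 and 922, the called genes of the other pathway lists between 0 and 5, and the median of the 41 was between 0.53 and 0.73 (0.73 without WT3). Over all genes 993 were called, but 1835 with the likelihood ratio test, 2093 with DESeq2 and 3228 with the threshold of the study. In the other pathway lists 5 were called, 12 with the likelihood ratio test, 15 with DESeq2, 21 with scaling to library size only and 9 with a filter of 1 count in any library. For results that moved without a library, fewer samples entered the fit, and the cause of the other changes was not tested. A fit without 1 APAP library leaves that group with 1 library, whose spread is assumed to be that of the saline libraries. No paired analysis was possible because the saline columns carry no number that the labels pair with an APAP sample. The precision was limited by 5 libraries and a biological coefficient of variation of 33.3%, and the part of the depth was not tested.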
